A study of Drosophila melanogaster with 21 samples.

Results

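The dpr, DIP, beat and side families encode immunoglobulin-domain proteins of the neuronal surface. Members were the genes whose name in the deposited RPKM table was dpr plus a number, began with DIP- or beat-, was side, or began with side-. There were 37 such genes among the 7076 of the table: 19 dpr, 3 DIP, 7 beat and 8 side genes. Of these, 35 reached 1 RPKM in 2 or more libraries, the filter on low values, and were tested. DIP-alpha and side-III did not pass it.

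The RNA came from L1 neurons, which relay input from photoreceptors into the fly optic lobe, sorted by FACS from Drosophila melanogaster brains. All flies were wild type, and the groups differed in age, with 40 h (n = 2), 60 h (n = 3) and 72 h (n = 2) after puparium formation. Chromatin accessibility was measured by ATAC-seq in L1 neurons of the same genotype and ages, with n = 2 at each age. The series lists 21 samples; the 8 single-cell libraries were not analysed here. The sources used here do not say which marker or driver was used for the sort, or whether libraries of an age came from separate flies. The p-values therefore measure the spread between these libraries, which may be technical.

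Dpr proteins (defective proboscis extension response) and DIPs (Dpr-interacting proteins) bind each other across cell contacts. In the fly optic lobe, neurons of different types carry different sets of them, and matched pairs act in the choice of synaptic partners and in neuron survival. Beat proteins (beaten path) and Side proteins (sidestep) form a second such network. It is known from motor axons, where beat-Ia on the axon responds to side on its substrate. Most members of each family bind only a few members of the partner family.

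Effective RNA library sizes, the totals to which the values were scaled, were 22.1 to 46.1 M reads. They went with age, at 46.1 and 46.0 M at 40 h and 22.1 to 28.5 M at 60 h and 72 h. Across genes, libraries of 1 age correlated at 0.976 to 0.987 on the log2 scale. The ATAC libraries were scaled to 13.8 to 18.3 M reads. ATAC libraries correlated at 0.968, 0.842 and 0.861 at 40 h, 60 h and 72 h. Of the 4 listed L1 markers, svp was at 108.6 to 139 RPKM in every library, and the others moved with age. VGlut was at 207 and 225 RPKM at 40 h and at 700 and 519 RPKM at 72 h. nSyb was at 251 and 267 RPKM, then at 807 and 644 RPKM, at these 2 ages. elav was at 74.1 and 63.4 RPKM at 40 h and at 21.9 to 25.6 RPKM in the later libraries. The 3 listed markers of other lamina neurons summed to 3.29 to 10.7 RPKM. The 8 glial markers summed to 23.8 to 86.2 RPKM at 40 h and 60 h, and to 547 and 1665 RPKM in replicates 1 and 2 at 72 h. The 10 photoreceptor markers summed to 35.1 to 546 RPKM, highest in 60 h replicate 2. In bulk samples, fewer cells of a type and less RNA per cell cannot be told apart.

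The summed level of the dpr and beat families was higher after 40 h, and that of the DIP and side families lower. Single genes set these changes in the DIP, beat and side families. The 19 dpr genes summed to 875 ± 74 RPKM at 40 h (SD, n = 2), 1260.1 ± 16 RPKM at 60 h (SD, n = 3) and 1167 ± 45 RPKM at 72 h (SD, n = 2). The 7 beat genes summed to 166 ± 14, 579 ± 40 and 535 ± 57 RPKM at the same ages. The 8 side genes went from 324 ± 80 to 167 ± 9.2 and 194 ± 35 RPKM. The 3 DIP genes were the lowest family throughout, with sums of 9.50 ± 3.0, 1.28 ± 0.86 and 2.60 ± 1.6 RPKM. DIP-gamma alone had means of 7.54, 0.350 and 0.375 RPKM. The means of DIP-alpha (0.599, 0.327 and 0.738 RPKM) and DIP-beta (1.37, 0.607 and 1.49 RPKM) were not lower at 72 h than at 40 h. For every family, the libraries of 40 h lay apart from those of 60 h and those of 72 h. The sums of 60 h and 72 h overlapped in the DIP, beat and side families. The higher beat sum was that of beat-VI: the 6 other beat genes summed to 101 ± 15, 77.3 ± 11 and 71.3 ± 2.8 RPKM, lower at both later ages. Without side-II, the 7 other side genes summed to 98.6 ± 16, 63.1 ± 6.5 and 112 ± 35 RPKM, and the 72 h libraries, at 87.2 and 137 RPKM, lay on either side of those of 40 h, at 87.4 and 109.9 RPKM.

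**Figure D1:**
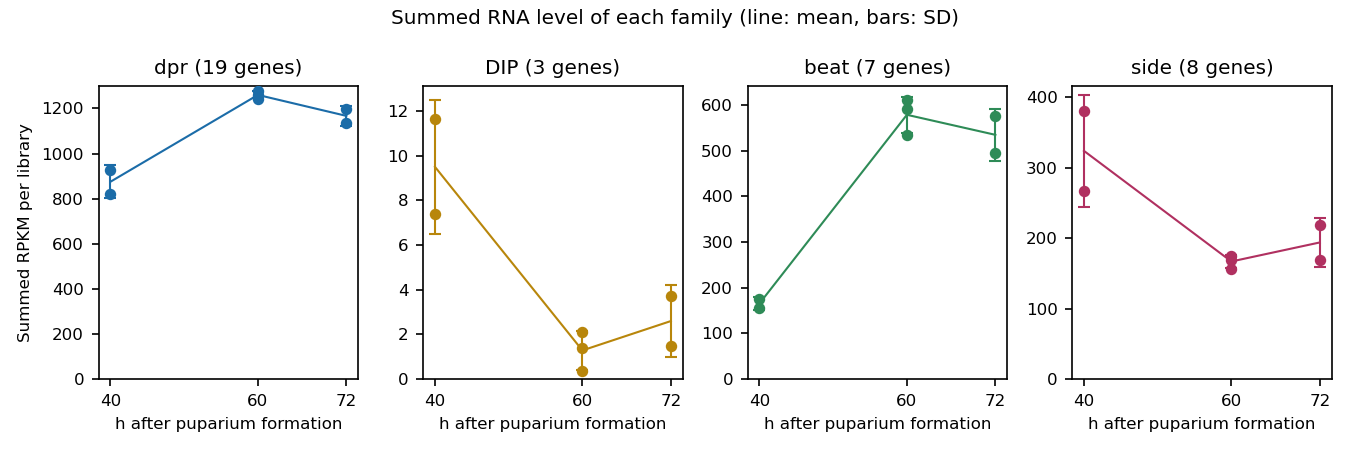
Summed RPKM of the dpr (19 genes), DIP (3), beat (7) and side (8) families against age in h after puparium formation; points are libraries, lines join the means and bars are SD. The dpr and beat sums were higher at 60 h and 72 h than at 40 h, and the DIP and side sums lower. Without beat-VI the beat sum was lower at both later ages (77.3 and 71.3 against 101 RPKM). The lower DIP sum was that of DIP-gamma, with means of 7.54, 0.350 and 0.375 RPKM.

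A few genes made up most of each sum. The 3 highest dpr genes held 60.8% of the dpr sum at 40 h, 57.8% at 60 h and 65.7% at 72 h. The 3 highest beat genes held 96.3%, 99.2% and 98.7% of theirs. At each age, 15 of the 37 members had a mean of at least 10 RPKM.

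The order of members by mean RPKM shifted with age. At 40 h side-II led with 225 ± 64 RPKM (SD, n = 2), followed by dpr10 with 217 ± 22, dpr7 with 177 ± 17, dpr15 with 137 ± 29 and dpr21 with 121 ± 14 RPKM. Of these neighbours in the order, the means of side-II and dpr10 differed by less than either SD, and those of dpr15 and dpr21 by less than the SD of dpr15. At 60 h beat-VI led with 502 ± 33 RPKM (SD, n = 3), ahead of dpr2 with 269 ± 12, dpr7 with 240 ± 26, dpr21 with 219 ± 18 and dpr5 with 187 ± 25 RPKM. The means of dpr7 and dpr21 differed by less than the SD of dpr7.

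At 72 h beat-VI, at 464 ± 60 RPKM (SD, n = 2), stood above dpr21 (322 ± 0.80), dpr7 (302 ± 14), dpr18 (143 ± 19) and dpr2 (133 ± 14). The levels of dpr18 and dpr2 lay within their spread. Only dpr7 and dpr21 were among the 5 highest members at all 3 ages. side-II went from rank 1 at 40 h to rank 7 at 72 h, dpr10 from rank 2 to rank 17, and dpr18 from rank 18 to rank 4.

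**Figure D2:**
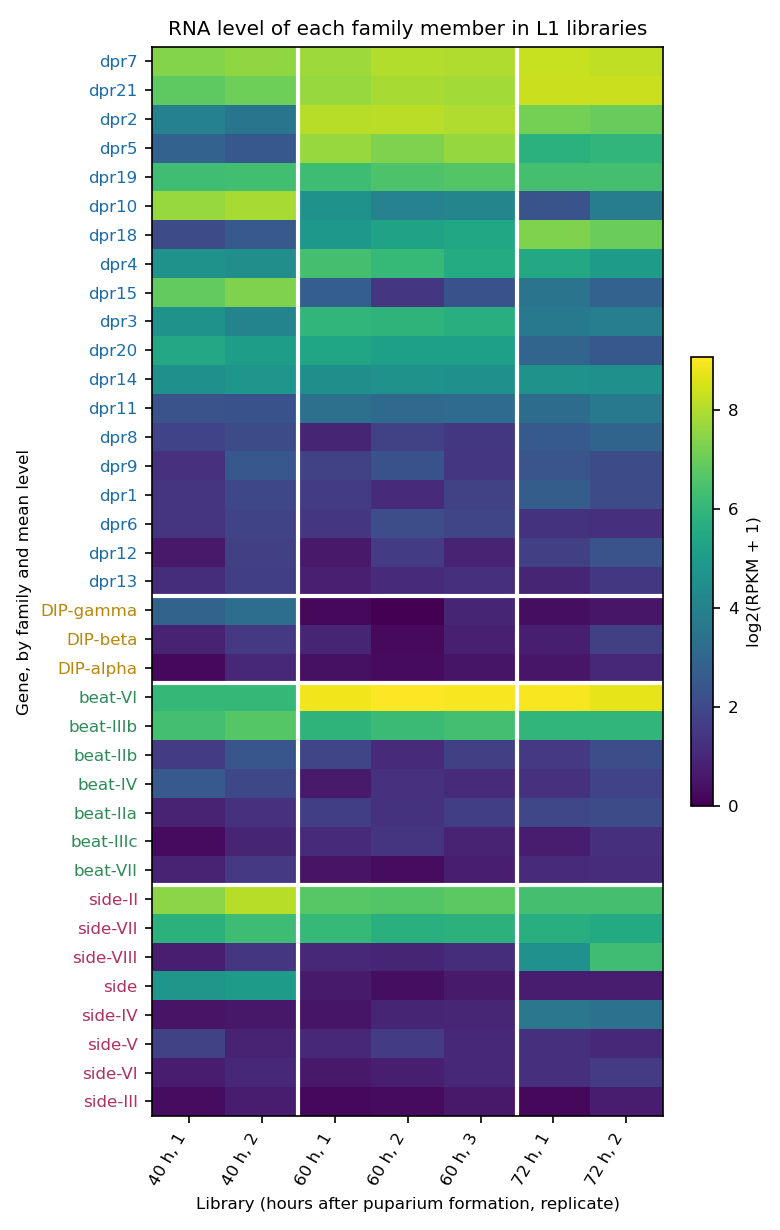
RNA level of the 37 members (rows, by family) in the 7 libraries (columns, by age), as log2(RPKM + 1). Genes with high values at all ages, such as dpr7, dpr21 and dpr19, stand beside genes with high values at 40 h alone, such as dpr15 and side, and others that are high from 60 h on, such as dpr2 and beat-VI.

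In the tests below, changes are log2 differences of RPKM + 1 from 1 limma fit over the 3 ages, and p-values are Benjamini-Hochberg adjusted over the 6939 genes tested. A gene passed at an adjusted p under 0.05. From 40 h to 60 h, 9 of the 35 members rose, where 25.2% of all tested genes did, and 6 fell, against 22.5% of all genes. From 60 h to 72 h, 7 rose (16.6% of all genes) and 6 fell (16.4%). Between 40 h and 72 h, 11 were higher (30.2% of all genes) and 9 lower (29.1%). These shares of members are near those of all genes. Members with a passed change of at least 1 on the log2 scale numbered 12, 10 and 14 in the 3 comparisons, 34.3%, 28.6% and 40% of the 35. The shares of all genes were 22.9%, 12.4% and 36.0%. In all, 22 of the 35 members passed in at least 1 comparison, where 67.6% of all genes did, and 18 did so with a size of at least 1 (40.6% of all genes).

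By family, 8 of the 19 dpr genes rose and 2 fell from 40 h to 60 h (25.2% and 22.5% of all genes). Their median change was 0.17. From 60 h to 72 h, 5 dpr genes rose and 6 fell (16.6% and 16.4% of all genes), and the median was 0.16. At 72 h against 40 h, 7 were higher and 4 lower (30.2% and 29.1%), with a median of 0.69. Of the 7 beat genes, 1 rose and 1 fell in the first interval, and none passed in the second. Of the 7 tested side genes, 2 fell in the first interval and 2 rose in the second. Of the photoreceptor markers, ninaE, norpA and Arr1 were highest in 72 h replicate 2, trpl in 40 h replicate 2 and inaD in 60 h replicate 2. The sum of all 10, as well as chp, trp, ninaC, inaC and Arr2, was highest in 60 h replicates 1 and 2. Without these 2 libraries the second changes of dpr4, dpr7, dpr8, dpr10, dpr15 and dpr21 did not pass. With no variance trend in the fit, the second changes of dpr4, dpr7, dpr10 and dpr15 and the net changes of dpr3, dpr4 and side-VII from 40 h to 72 h were lost. The medians over all genes were -0.002, -0.014 and -0.006 in the 3 comparisons.

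**Figure D3:**
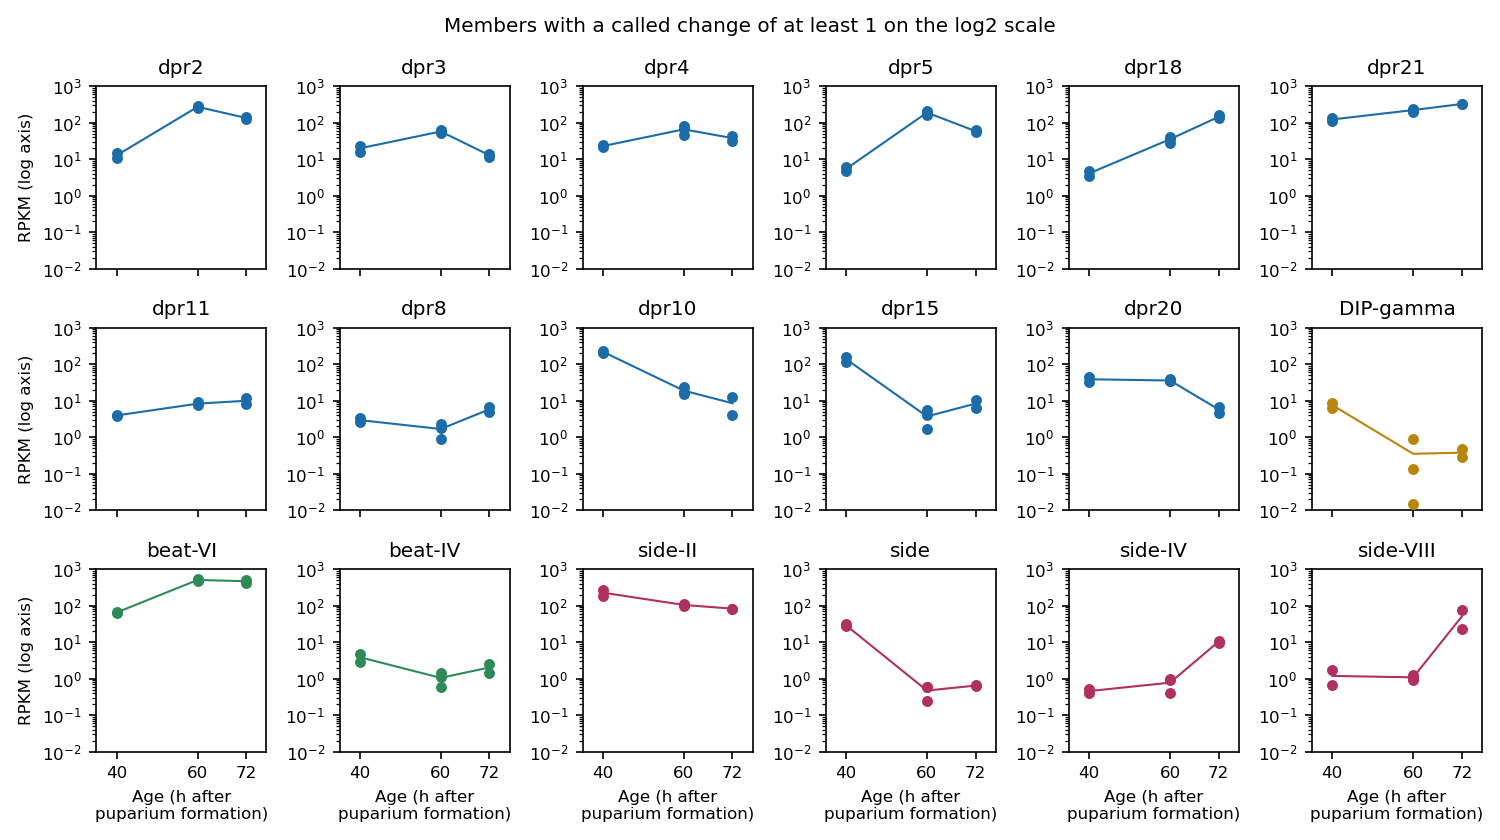
RPKM (log axis) against age for the 18 members with a passed change of at least 1 on the log2 scale; each point is a library and lines join the means. dpr2 to dpr5 peak at 60 h, dpr18 is higher at each later age, and dpr10, dpr15, DIP-gamma and side are highest at 40 h.

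The genes dpr2, dpr3, dpr4 and dpr5 peaked at 60 h. Their proteins belong to the group dpr1 to dpr5, which is known to bind DIP-eta, DIP-theta and DIP-iota. These 4 were the members that rose in the first interval and fell in the second, an order shown by 3.42% of all tested genes.

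dpr5, on chromosome arm 3R, was at 6.13 and 4.59 RPKM at 40 h, at 204, 158 and 199 RPKM at 60 h, and at 54.2 and 62.2 RPKM at 72 h. All 60 h libraries lay above those of 72 h, which lay above those of 40 h. It rose by 4.89 ± 0.15 (SE, limma adjusted p = 4.5e-09) and then fell by 1.66 ± 0.15 (limma adjusted p = 2.5e-05). dpr2, on arm 2L, was at 14.7 and 10.5 RPKM, then at 275, 278 and 255 RPKM, then at 143 and 123 RPKM. Its libraries followed the same order without overlap. The change was 4.33 ± 0.14 (limma adjusted p = 4.8e-09), followed by -1.01 ± 0.14 (limma adjusted p = 3.3e-04). At 72 h both genes remained higher than at 40 h, by 3.23 ± 0.17 and 3.32 ± 0.15.

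For dpr3, on arm 2L, values were 23.5 and 15.8 RPKM at 40 h, 61.7, 57.8 and 51.1 RPKM at 60 h, and 11.7 and 13.9 RPKM at 72 h. The 72 h libraries lay below those of 40 h. Its changes were 1.51 ± 0.18 (limma adjusted p = 4.8e-05) and -2.07 ± 0.18 (limma adjusted p = 1.6e-05). The net change of -0.56 ± 0.19 from 40 h to 72 h did not pass without 40 h replicate 1 or without 72 h replicate 1, and was -0.30 without the former. dpr4, next to dpr5 on arm 3R among the members, was at 24.2 and 21.1 RPKM, then at 82.9, 66.1 and 46.7 RPKM, then at 43.5 and 31.4 RPKM. No age overlapped with another, although 60 h replicate 3 came close to 72 h replicate 1. It rose by 1.45 ± 0.22 (limma adjusted p = 3.1e-04) and fell by 0.77 ± 0.22 (limma adjusted p = 0.022). The fall did not pass when 72 h replicate 2, or either of the first 2 libraries of 60 h, was left out, and was -0.33 without both 60 h replicates 1 and 2. dpr4 was higher at 72 h than at 40 h by 0.69 ± 0.24, which did not pass without either 40 h library or without 72 h replicate 1 (0.46 in the last case).

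The difference between the second and the first change, tested in the same fit, was -6.55 ± 0.26 for dpr5, -5.34 ± 0.23 for dpr2, -3.58 ± 0.30 for dpr3 and -2.22 ± 0.37 for dpr4. All 4 passed, and that of dpr4 did not without 60 h replicates 1 and 2. Among members, 9 had a positive difference that passed (11.6% of all genes) and 6 a negative one (15.3%). Of the positive ones, that of side-II was lost in 14 of 16 alternatives and that of beat-IV in 8 of 16. dpr1, the remaining gene of that binding group, had means of 1.85 to 4.33 RPKM and passed in no comparison. Its second change, 0.90 ± 0.32 (limma adjusted p = 0.052), lay just outside the threshold and passed with no filter and with no variance trend.

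**Figure D4:**
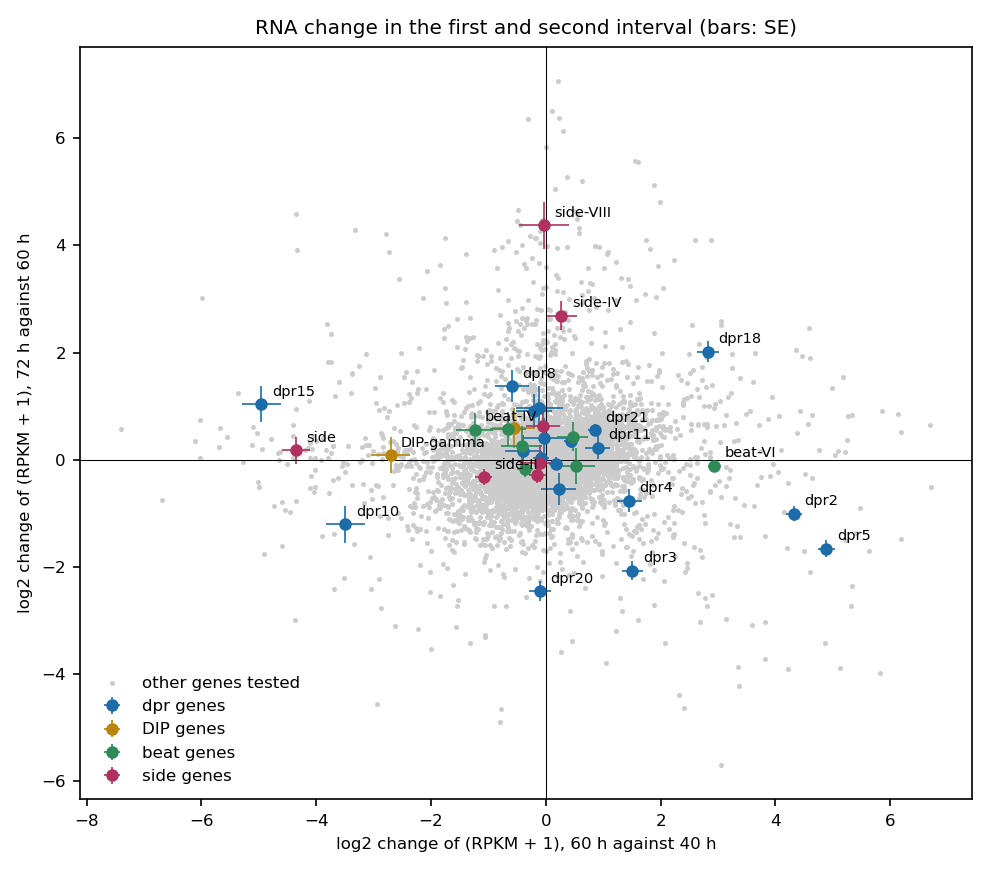
Change from 60 h to 72 h against change from 40 h to 60 h, as log2 differences of RPKM + 1, for the 35 tested members coloured by family. dpr2, dpr3, dpr4 and dpr5 lie at the lower right (up, then down), dpr18 at the upper right, dpr10 at the lower left, and side-IV and side-VIII near 0 on the horizontal axis and high on the vertical one.

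Among the genes that were higher at each later age, dpr18 had the largest change. dpr18 lies on the X chromosome. Its level was 3.35 and 4.74 RPKM at 40 h, 27.7, 36.0 and 41.1 RPKM at 60 h, and 156 and 130.2 RPKM at 72 h. Libraries of the 3 ages were apart. The rises were 2.83 ± 0.19 (SE, limma adjusted p = 7.4e-07) and 2.02 ± 0.19 (limma adjusted p = 2.8e-05). The difference between them, -0.81 ± 0.32, did not pass (limma adjusted p = 0.087). It passed under quantile normalization, with a pseudocount of 0.1 (-1.03), without 40 h replicate 2 (-1.01) and without 60 h replicate 1 (-1.12).

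dpr21, whose protein binds DIP-beta, was at 112 and 131 RPKM at 40 h, at 200.4, 236 and 222 RPKM at 60 h, and at 322 and 321 RPKM at 72 h. The ages did not overlap. It rose by 0.85 ± 0.11 (limma adjusted p = 9.7e-05) and by a further 0.55 ± 0.11 (limma adjusted p = 0.0031). With quantile normalization the second rise was 0.29 and did not pass, and the net rise of 1.40 ± 0.12 was 0.88. dpr7, on chromosome 4, was at 165 and 189 RPKM, then at 209.7, 256 and 254 RPKM, then at 312 and 292 RPKM. The ages did not overlap, and the changes of 0.43 ± 0.12 and 0.34 ± 0.12 were the smallest passed changes of a dpr gene in their intervals. Under quantile normalization they were 0.05 and 0.10, and neither passed. The first did not pass without 40 h replicate 1, and the second was lost on leaving out any single library of 60 h or 72 h. dpr18, dpr21 and dpr7 were the 3 members that rose in both intervals, as 8.55% of all genes did.

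dpr11, whose protein binds DIP-gamma, was at 3.93 and 3.90 RPKM at 40 h, at 9.12, 7.58 and 7.98 RPKM at 60 h, and at 8.16 and 11.6 RPKM at 72 h. Both 40 h libraries lay below all others, and the later ages overlapped. It rose by 0.91 ± 0.22 in the first interval (limma adjusted p = 0.0058). Without 60 h replicates 1 and 2 this rise did not pass, and with a pseudocount of 5 it was 0.57.

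Of the dpr genes that were highest at 40 h, dpr15 and dpr10 changed most. dpr15, on arm 3R, encodes another DIP-gamma binder. Its level was 117 and 157 RPKM at 40 h, 5.48, 1.69 and 3.91 RPKM at 60 h, and 10.3 and 6.21 RPKM at 72 h. The 40 h libraries were far above the rest, and the 72 h libraries lay above those of 60 h. It fell by 4.95 ± 0.34 (SE, limma adjusted p = 8.9e-07) and then rose by 1.03 ± 0.34 (limma adjusted p = 0.039), the order shown by 2.15% of all genes. The second change was lost on leaving out either 40 h library, 72 h replicate 1, or 60 h replicate 2 (0.68).

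dpr10, on arm 3L, encodes a binder of DIP-alpha. It was at 202 and 233 RPKM at 40 h, at 23.8, 15.4 and 16.9 RPKM at 60 h, and at 4.06 and 12.9 RPKM at 72 h. The ages did not overlap, and the 72 h libraries differed by more than those of 60 h. It fell by 3.49 ± 0.34 (limma adjusted p = 1.2e-05) and then changed by -1.21 ± 0.34 (limma adjusted p = 0.019). The second fall did not pass without 60 h replicate 1 or without 72 h replicate 1, where it was -0.49, and was -1.94 without 72 h replicate 2. dpr10 was the 1 member that fell in both intervals, as 6.86% of all genes did. Its neighbour on the chromosome, dpr6, whose protein also binds DIP-alpha, had means of 1.42 to 2.61 RPKM and passed in no comparison.

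dpr20 fell later. Its level was 43.7 and 32.9 RPKM at 40 h, 39.0, 33.4 and 33.9 RPKM at 60 h, and 6.85 and 4.60 RPKM at 72 h. The first 2 ages overlapped and both 72 h libraries lay below them. The change was -0.10 ± 0.19 in the first interval, which did not pass, and -2.45 ± 0.19 in the second (SE, limma adjusted p = 8.7e-06). The 2 changes differed by -2.35 ± 0.31 (limma adjusted p = 3.1e-04).

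dpr8, on the X chromosome, encodes a DIP-beta binder and stayed low. It was at 2.53 and 3.31 RPKM at 40 h, at 0.893, 2.33 and 1.77 RPKM at 60 h, and at 4.99 and 6.51 RPKM at 72 h. The 3 ages did not overlap. It rose by 1.37 ± 0.30 from 60 h to 72 h (limma adjusted p = 0.0051), and that rise was 0.69 with a pseudocount of 5.

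The 7 other dpr genes, dpr6, dpr9, dpr12, dpr13, dpr14, dpr19 and dpr1, passed in no comparison, and they spanned a wide range of levels. dpr19 had means of 77.8 ± 2.4, 88.3 ± 11 and 83.1 ± 0.14 RPKM, so that it ranked 6 or 7 of 37 at each age. Its changes were 0.17 ± 0.12 and -0.08 ± 0.12. dpr14 had means of 24.2 ± 2.7, 22.7 ± 1.1 and 23.0 ± 1.2 RPKM. The remaining 5 had means of 1.08 to 4.33 RPKM, where the log2(RPKM + 1) scale understates changes.

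The DIP family was represented by 3 genes at low level. DIP-gamma, which binds dpr11 and dpr15, was at 6.36 and 8.72 RPKM at 40 h, at 0.136, 0.0146 and 0.899 RPKM at 60 h, and at 0.278 and 0.472 RPKM at 72 h. These values stand for 911 and 1246 reads at 40 h, 12, 1 and 68 reads at 60 h, and 20 and 37 reads at 72 h. Every later library lay below both 40 h libraries. It fell by 2.70 ± 0.34 in the first interval (SE, limma adjusted p = 7.1e-05). The change was -4.65 with a pseudocount of 0.1 and -1.23 with a pseudocount of 5. The second change was 0.08 ± 0.34. The fall coincided with that of dpr15, while dpr11 rose.

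DIP-beta, the partner of dpr8, dpr9 and dpr21, had means of 1.37 ± 0.68, 0.607 ± 0.39 and 1.49 ± 1.1 RPKM and passed in no comparison. DIP-alpha was at 0.133 to 1.06 RPKM, with 41 to 440 reads per library, and was not tested. The other DIP genes are not analysed here at the RNA level.

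In the beat family, the largest change was that of beat-VI, which encodes the known binder of side-II. It was at 65.3 and 64.1 RPKM at 40 h, at 468, 533 and 503 RPKM at 60 h, and at 506 and 422 RPKM at 72 h. Both 40 h libraries lay far below the rest, and the later ages overlapped. beat-VI rose by 2.93 ± 0.11 (SE, limma adjusted p = 1.1e-08), and its second change of -0.12 ± 0.11 did not pass. With quantile normalization the second change passed as a fall.

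beat-IV was lower at 60 h. Its level was 4.80 and 2.91 RPKM at 40 h, 0.575, 1.47 and 1.10 RPKM at 60 h, and 1.45 and 2.58 RPKM at 72 h. The 40 h libraries lay above all others, and the later ages overlapped. It fell by 1.24 ± 0.32 (limma adjusted p = 0.0086), a change that did not pass without 40 h replicate 1 or without 60 h replicates 1 and 2, and was -0.54 with a pseudocount of 5. beat-IIIb, the second highest beat gene after 40 h, had means of 90.8 ± 13, 70.6 ± 11 and 61.5 ± 0.00099 RPKM. It was lower at 72 h than at 40 h by a log2 change of -0.55 ± 0.16, which did not pass without 40 h replicate 2. beat-IIa, a binder of side-IV, was higher at 72 h by 0.89 ± 0.30, from 1.16 ± 0.44 to 2.98 ± 0.27 RPKM. That call was lost without 40 h replicate 1 and without either 72 h library, and the change was 0.37 with a pseudocount of 5. beat-IIIc, beat-IIb and beat-VII had means of 0.451 to 3.15 RPKM and passed in no comparison.

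In the side family, side and side-II fell in the first interval, and side-IV and side-VIII rose in the second. side, on arm 3R, is the founding member of the family and the partner of beat-Ia. It was at 27.0 and 30.8 RPKM at 40 h, at 0.587, 0.251 and 0.574 RPKM at 60 h, and at 0.658 and 0.631 RPKM at 72 h. Both 40 h libraries stood far above the others. It fell by 4.35 ± 0.25 (SE, limma adjusted p = 2.3e-07), a change of -2.63 with a pseudocount of 5. It did not pass in the second interval (0.17 ± 0.25).

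side-II, the partner of beat-VI, was at 180.3 and 271 RPKM at 40 h, at 104, 98.4 and 109 RPKM at 60 h, and at 82.4 and 81.9 RPKM at 72 h. The ages did not overlap. It fell by 1.08 ± 0.15 (limma adjusted p = 1.6e-04) and was lower at 72 h than at 40 h by a log2 change of -1.42 ± 0.16. side-II and beat-VI, which bind each other, thus went in opposite directions from 40 h to 60 h.

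side-IV, a partner of beat-IIa and beat-IIb, was at 0.406 and 0.505 RPKM at 40 h, at 0.411, 0.928 and 0.986 RPKM at 60 h, and at 11.0 and 9.63 RPKM at 72 h. The 72 h libraries lay above all others, while the earlier ages overlapped. It rose by 2.69 ± 0.27 from 60 h to 72 h (limma adjusted p = 4.7e-05), or by 1.41 with a pseudocount of 5. The first change, 0.27 ± 0.27, did not pass, and the 2 changes differed by 2.42 ± 0.46 (limma adjusted p = 0.0029), a difference that did not pass without 60 h replicates 1 and 2.

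side-VIII was at 0.689 and 1.69 RPKM at 40 h, at 1.07, 0.912 and 1.27 RPKM at 60 h, and at 22.8 and 77.1 RPKM at 72 h. The 72 h libraries were above all others, with replicate 2 well above replicate 1. It rose by 4.37 ± 0.43 in the second interval (limma adjusted p = 3.8e-05). The summed glial markers were 547 and 1665 RPKM in the same 2 libraries, against at most 86.2 RPKM at the earlier ages, and their part in this result was not tested. side-IV was at 11.0 and 9.63 RPKM in these 2 libraries, and the part of glial RNA in its rise was not tested either.

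side-VII had means of 65.2 ± 13, 58.4 ± 7.3 and 47.7 ± 3.1 RPKM and was lower at 72 h than at 40 h by a log2 change of -0.43 ± 0.16. That call was lost without 40 h replicate 2 (-0.23), without either 72 h library, without the second or the third library of 60 h, and with the replicate number as a block. side-V and side-VI had means of 0.756 to 1.70 RPKM and passed in no comparison. side-III, at 0.132 to 0.662 RPKM, was not tested.

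Known binding groups held members with unlike calls, and differences between genes were not tested. Of the dpr genes that bind DIP-beta, dpr21 rose in both intervals, dpr8 in the second, and dpr9 passed in none. Of those that bind DIP-epsilon and DIP-zeta, dpr20 fell at 72 h, while dpr13, dpr14 and dpr19 passed in no comparison. Within the group of dpr1 to dpr5, 4 of 5 followed the same order, as given above. Among genes next to each other on the chromosome, dpr5 and dpr4 both rose and fell, whereas dpr10 fell in both intervals and dpr6 passed in none.

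Other genes of the same system were examined too. Lac, an immunoglobulin surface protein related to the DIPs, went from a mean of 840 RPKM at 40 h to 4.63 RPKM at 60 h and 6.36 RPKM at 72 h (log2 change of -7.40 ± 0.42 at 60 h, limma adjusted p = 2e-07). klg, 1 of the 2 tested genes in that list of 5, was higher at 72 h than at 40 h by 1.06 ± 0.35. Fas2, an adhesion protein of motor axons on which beat and side act, fell in both intervals, from means of 460.3 to 256 and 170.5 RPKM. Con, another adhesion protein of that system, rose from 1.26 to 90.2 RPKM at 60 h and fell to 16.9 RPKM at 72 h. Many Dpr and DIP proteins are anchored by GPI. Of 20 tested genes for GPI anchor synthesis and attachment (25 in the list), 6 rose and 5 fell at 60 h (25.2% and 22.5% of all genes), none rose and 3 fell from 60 h to 72 h (16.6% and 16.4%), and 3 were higher and 6 lower at 72 h than at 40 h (30.2% and 29.1%). The medians of that list were 0.10, -0.24 and -0.03. PIG-K, of the transamidase that attaches the anchor, rose from 15.9 to 38.5 RPKM at 60 h, and PIG-B, a mannosyltransferase of anchor synthesis, fell from 82.0 to 26.7 RPKM.

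Chromatin accessibility near the members was read from the peaks whose nearest gene, in the authors' table, was a member. There were 367 such peaks among 26121, and every member but dpr18 had at least 1. Of these, 337 were above the lowest 10% of mean level and were tested. From 40 h to 60 h, 51 peaks rose (10.7% of all tested peaks) and 91 fell (16.0%). From 60 h to 72 h, 4 rose (0.723%) and 28 fell (4.39%). Between 40 h and 72 h, 77 were higher (26.0%) and 132 lower (29.4%). The members' shares were 15.1% and 27.0%, 1.19% and 8.31%, and 22.8% and 39.2%. The counts from 60 h to 72 h moved with single libraries: without 60 h replicate 2 they were 34 higher and 66 lower, without 72 h replicate 2 they were 0 and 5, and without the other libraries in turn 1 to 4 and 6 to 15. From 40 h to 60 h, 86 were higher without 60 h replicate 1, and at 72 h against 40 h, 47 were higher without 40 h replicate 2.

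By family, the differences between which were not tested, peaks moved as follows. Of 23 peaks of DIP genes, 1 rose and 13 fell from 40 h to 60 h (10.7% and 16.0% of all tested peaks). For side genes 4 of 65 rose and 17 fell, for dpr genes 24 of 181 rose and 40 fell, and for beat genes 22 of 68 rose and 21 fell. At 72 h against 40 h, 50 dpr peaks were higher and 61 lower, but 32 of the higher ones belonged to dpr21, which had 41 tested peaks. Without dpr21, 18 of 140 were higher and 61 lower (26.0% and 29.4% of all tested peaks). Of the tested peaks of the 3 other families, 2 of DIP, 22 of beat and 3 of side genes were higher at 72 h than at 40 h, and 13, 28 and 30 were lower.

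At some genes most peaks moved the same way. At DIP-gamma, 8 of 8 tested peaks fell from 40 h to 60 h, as did 3 of 3 at side, 4 of 5 at dpr15 and 6 of 8 at dpr10. At beat-VI 16 of 25 rose and 2 fell, and at dpr2 8 of 15 rose and 1 fell. Of all tested peaks, 10.7% rose and 16.0% fell in that interval. At beat-IIb, whose RNA passed in no comparison, 6 of 6 peaks were lower at 72 h than at 40 h. At dpr7, whose RNA rose, neither of the 2 tested peaks passed.

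The positions below match gene ends of Release 6 of the fly genome within 1 base for 88.2% of 19924 peaks compared, and levels are in RPKM of the peak. For each named member, the peak with the smallest adjusted p at 72 h against 40 h is described. The peaks of dpr15, dpr10, DIP-gamma and side lie inside the span of their gene, as do those of dpr2, dpr3, dpr4, dpr8, dpr11, dpr21, beat-IV, beat-VI, side-II and side-IV. Exons and introns were not analysed here.

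The dpr15 peak, at chr3R:12151854-12152533, lies 6.06 kb from the gene's start. It was at 131 and 207 RPKM at 40 h, 14.9 and 14.9 RPKM at 60 h, and 14.5 and 13.0 RPKM at 72 h. Both 40 h libraries stood far above the other 4. It fell by 3.38 ± 0.26 on the log2 scale (SE, limma adjusted p = 1.2e-05), beside the RNA fall of the gene.

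The dpr10 peak, at chr3L:10184303-10184540, lies 1.57 kb from its start and was at 142 and 198 RPKM, then 34.5 and 22.6 RPKM, then 15.0 and 12.8 RPKM. Levels were lower at each later age without overlap. It fell by 2.54 ± 0.27 by 60 h (limma adjusted p = 3.8e-05). The DIP-gamma peak, at chr3R:28958173-28959089, was at 152 and 195 RPKM, then 31.5 and 28.4 RPKM, then 20.5 and 19.5 RPKM. It fell by 2.48 ± 0.22 in the first interval (limma adjusted p = 1.5e-05). The side peak, at chr3R:27390288-27390649, was at 59.1 and 81.1 RPKM, then 12.6 and 14.2 RPKM, then 15.9 and 15.2 RPKM. As with the RNA of side, the 40 h libraries stood above all others. It fell by 2.28 ± 0.28 (limma adjusted p = 1.1e-04).

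The peaks of dpr2 and side-IV were higher after 40 h. The dpr2 peak, at chr2L:10927206-10927671 and 36.5 kb from the start, was at 7.84 and 10.4 RPKM at 40 h, 92.7 and 79.9 RPKM at 60 h, and 64.1 and 55.8 RPKM at 72 h. It rose by 3.12 ± 0.24 (limma adjusted p = 1.1e-05), and the ages did not overlap, in the same order as the RNA. The side-IV peak, at chr3R:13458640-13459545, was at 28.4 and 26.8 RPKM at 40 h, 98.0 and 84.0 RPKM at 60 h, and 85.5 and 93.1 RPKM at 72 h. It rose by 1.68 ± 0.20 by 60 h (limma adjusted p = 7.9e-05), and its level at 72 h overlapped with that at 60 h. The RNA of side-IV passed in the second interval and not in the first.

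At several genes whose RNA rose, the described peak fell. The beat-VI peak at chr3R:28436212-28437584 was at 134 and 205 RPKM at 40 h, 35.1 and 35.6 RPKM at 60 h, and 32.9 and 31.7 RPKM at 72 h. Its log2 change was -2.20 ± 0.23 (limma adjusted p = 3.9e-05) while its RNA rose. Another beat-VI peak, chosen after its values were seen, at chr3R:28452394-28453041, was at 18.6 and 19.6 RPKM, then 75.6 and 68.3 RPKM, then 50.6 and 51.5 RPKM. It rose by 1.86 ± 0.21 (limma adjusted p = 5.9e-05), so that 2 peaks inside 1 gene moved in opposite directions.

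The dpr4 peak, at chr3R:11537929-11538594, was at 183 and 230.4 RPKM at 40 h, 113 and 96.0 RPKM at 60 h, and 35.4 and 36.6 RPKM at 72 h. It fell by 0.98 ± 0.20 and then by 1.51 ± 0.20 (limma adjusted p = 0.0031 and 0.0073), while the RNA rose and then fell. With quantile normalization the first of these changes was -0.48. The dpr5 peak, at chr3R:11514800-11515016 and outside the gene, was at 105 and 121 RPKM, then 34.7 and 23.8 RPKM, then 17.4 and 18.7 RPKM. It fell by 1.93 ± 0.24 in the first interval (limma adjusted p = 1.1e-04). The dpr3 peak, at chr2L:2072394-2073834, was at 139.6 and 185 RPKM, then 21.3 and 23.5 RPKM, then 16.5 and 18.8 RPKM. Its 40 h libraries stood above all others, and it fell by 2.79 ± 0.23 in the first interval (limma adjusted p = 1.3e-05).

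The peaks described for dpr11, dpr8, beat-IV, side-II and side-VIII were also lower at 60 h than at 40 h. The dpr11 peak, at chr3R:6552543-6553800, was at 143 and 185 RPKM, then 22.0 and 21.1 RPKM, then 24.5 and 21.2 RPKM. The dpr8 peak, at chrX:14345811-14346743, was at 121 and 174 RPKM, then 11.4 and 10.9 RPKM, then 17.4 and 17.5 RPKM. Their RNA rose, in the first and in the second interval respectively. The beat-IV, side-II and side-VIII peaks fell by 1.59 ± 0.26, 1.68 ± 0.24 and 1.55 ± 0.29 in the first interval. The dpr21 peak was at 15.4 and 15.2 RPKM at 40 h, 22.9 and 34.7 RPKM at 60 h, and 43.6 and 56.0 RPKM at 72 h. It was higher at 72 h than at 40 h by 1.63 ± 0.28 (limma adjusted p = 6.9e-04). The dpr20 peak lies over its start site. It was lower at 72 h than at 40 h by a log2 change of -0.90 ± 0.20 (limma adjusted p = 0.0029), or -0.60 with quantile normalization.

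Peaks over start sites were mostly lower at later ages, both at members and among all genes. Such a peak was present at 36 members, and its change was below 0 in 30, 32 and 35 of them in the 3 comparisons, against 62.7%, 79.4% and 72.4% of all 6068 start-site peaks. None rose in any comparison, against 3.51%, 0.148% and 5.47% of all start-site peaks. From 40 h to 60 h 6 fell (8.55% of all start-site peaks), from 60 h to 72 h 3 fell (3.18%), and between 40 h and 72 h 25 were lower (32.9%). At 72 h against 40 h the median change of all start-site peaks was -0.31, and that of the members' was -0.73. Reads in peaks were 19.79 and 18.05 M at 40 h, above the scaling sizes of 18.33 and 14.43 M. They were 15.67 and 13.55 M at 60 h, below sizes of 15.94 and 13.77 M. At 72 h they were 12.71 and 13.26 M, below sizes of 14.61 and 15.06 M. The part of this shift in the falls of start-site and other peaks was not tested. With quantile normalization the dpr20 start-site peak changed by -0.60 at 72 h against 40 h, in place of -0.90.

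The RNA change of a member and the median change of its peaks were compared over the 28 members with at least 3 tested peaks. Spearman's rho across these genes was 0.51, 0.33 and 0.50 in the 3 comparisons. Across the 1252 genes with at least 3 peaks it was 0.46, 0.33 and 0.41. The sign was the same in 20, 18 and 20 of the 28 members, or 71.4%, 64.3% and 71.4%, and in 64.9%, 56.5% and 62.9% of all such genes. These are descriptions across genes, which share libraries and are not independent replicates.

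**Figure D5:**
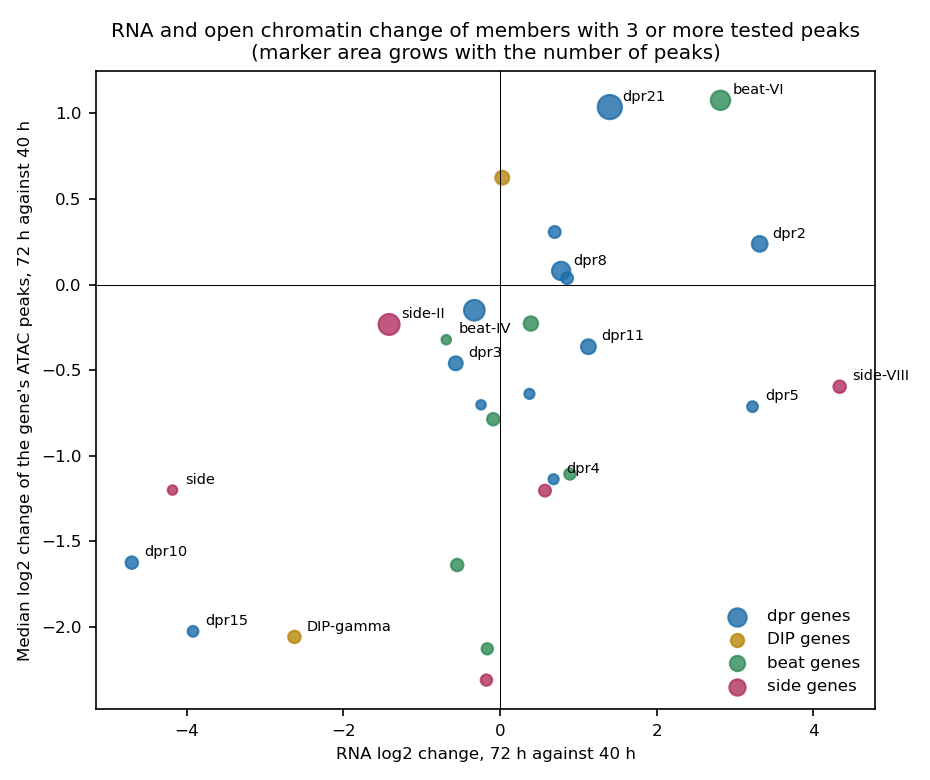
RNA change against the median change of the peaks nearest to each gene, for members with at least 3 tested peaks. Both are log2 differences of RPKM + 1 at 72 h against 40 h. DIP-gamma, dpr15, dpr10 and side lie at the lower left and beat-VI and dpr2 (peak median 0.24) at the upper right. At the lower right, with higher RNA and a lower peak median, lie side-VIII (4.34 and -0.60), dpr5 (3.23 and -0.71), dpr11 and dpr4, among others. Spearman's rho over the 28 members is 0.50 in that comparison.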

How the data were processed

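RNA libraries were made with SMART-seq2 and ATAC libraries with a modified Buenrostro protocol, per the labels' protocols. The submitters' processing notes name MACS2 2.1.1, Bowtie2 2.2.9, edgeR 3.26.8 and bedtools, and, for no stated step, Seurat 3.1.2 and Cell Ranger 3.1.0. RNA levels were deposited as RPKM. ATAC levels carry no unit label and were read as RPKM from the deposited values, since level times peak width gave whole reads (tolerance 0.1) for 100% of values. The peak names show 1 call over merged libraries, per the file headers, with the nearest gene given by the authors. How reads shared between paralogs were counted is not given in the sources used here.

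Effective library sizes were recovered from whole-read steps of genes under 6000 bases (tolerance 0.02 of a read). For RNA, 120 to 156 of the 495 to 500 low values searched per library were whole at the chosen size. The RNA read counts given above rest on these sizes. Genes that reached 1 RPKM in 2 or more libraries (6939 of 7076) and peaks above the lowest 10% of mean level (23508 of 26121) were tested on log2(value + 1), a scale that understates changes of low features. For each assay 1 limma 3.58.1 fit (R 4.3.3) over the 3 ages, with trended variance, was tested two-sided, with Benjamini-Hochberg adjustment over all features and a threshold of 0.05. The script was tested on simulated data.

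Members with a passed log2 change of at least 1 in size are described by library, with at most 1 peak each. Members and lists were chosen with earlier results of these data known. Binding partners, gene functions and positions on chromosome arms are background or from RefSeq Release 6. Alternatives were other pseudocounts, scalings and filters, no variance trend, a replicate block, peak distances and leaving out libraries.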

Additional observations from a re-analysis of the deposited data

How the results depend on the processing

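No member, and no peak described for its smallest adjusted p, changed direction where it was called, under any alternative run. The second beat-VI peak, chosen after its values were seen, was not among the peaks put through the alternatives. Over single members and peaks, 2112 RNA values kept their side of the threshold, 101 lost a call and 27 gained one; for ATAC the numbers were 696, 7 and 11. From 40 h to 60 h, quantile normalization gave 2 DIP, beat and side genes higher in place of 1. From 60 h to 72 h it gave 1 of them lower in place of 0 and 3 dpr genes higher in place of 5. In 60 h replicates 1 and 2 the summed photoreceptor markers were highest. Without these 2 libraries the rises of dpr7, dpr8, dpr15 and dpr21 from 60 h to 72 h were 0.25, 1.27, 0.88 and 0.54. With all libraries they were 0.34, 1.37, 1.03 and 0.55. When 72 h replicate 2 was also left out, those of dpr7, dpr8 and dpr21 were 0.30, 1.11 and 0.54. In that setting the fall of dpr4 was -0.10 and that of dpr10 -1.83, against -0.77 and -1.21 with all libraries. That setting was chosen after seeing the data. Leaving out 1 library at a time, dpr genes higher from 60 h to 72 h numbered 3 to 5, and DIP, beat and side genes lower numbered 0 to 1 in that interval and 3 to 5 at 72 h against 40 h. For the members' peaks, leaving out 1 library gave 35 to 86 higher at 60 h against 40 h (51 with all), 47 to 94 higher at 72 h against 40 h (77), and 0 to 34 higher (4) and 5 to 66 lower (28) at 72 h against 60 h. Of 112 tested peaks within 10 kb of the gene, 8 were higher and 34 lower at 60 h against 40 h (9.99% and 15.7% of all peaks at that distance), 1 and 13 at 72 h against 60 h (0.681% and 4.35%), and 10 and 60 at 72 h against 40 h (17.4% and 33.2%). Of 56 within 2 kb the numbers were 1 and 11 (7.11% and 12.1%), 0 and 4 (0.429% and 3.30%), and 3 and 33 (12.2% and 32.9%). Without a variance trend 16 were lower at 72 h against 60 h. The cause of these shifts was not tested, other than that fewer peaks or libraries enter some of them.

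Replicate numbers did not pair the libraries across every age. Deviations of same-numbered RNA libraries correlated at -0.087 to 0.216. For ATAC they correlated at -0.468 between 40 h and 60 h, -0.111 between 40 h and 72 h, and 0.546 between 60 h and 72 h. Same-numbered ATAC libraries of 60 h and 72 h thus deviated alike, and the main fit has no term for that. With the replicate number as a block, 8 dpr genes rose and 2 fell at 60 h against 40 h, 4 rose and 6 fell at 72 h against 60 h, and 8 were higher and 4 lower at 72 h against 40 h. For peaks the block gave 54 higher and 91 lower, 4 and 31, and 79 and 135. With the 40 h numbers crossed, a setting chosen after seeing the data, it gave 20 higher and 69 lower at 72 h against 60 h. With 2 or 3 libraries per age, calls of small changes and of genes near 1 RPKM were among those that single libraries or settings ended, such as dpr7, beat-IIa and beat-IV.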

Other observations

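Peaks were also nearest to 15 genes of these families that are not among the members. At DIP-lambda, on arm 2R, 106 of 146 tested peaks were higher at 72 h than at 40 h and none were lower, where 26.0% of all tested peaks were higher and 29.4% lower. At DIP-kappa 3 of 3 peaks were lower at 72 h than at 40 h, at DIP-zeta 2 of 2, and at dpr17 2 of 2. At DIP-delta, the partner of dpr12, 2 of 3 were lower and 1 higher. At beat-Ia, the partner of side, 3 of 4 were lower and 1 higher. Their RNA is not analysed here.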
